A study of Mus musculus with 4 samples.

Results

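The genes described here were 10 secreted ligands and cell surface receptors of blood vessel growth, taken by symbol from the filtered count matrices of all 4 libraries. The 5 ligands were Vegfa, Vegfc, Angpt1, Angpt2 and Apln, and the 5 receptors were Kdr, Flt1, Flt4, Tek and Aplnr. Each symbol matched 1 of the 32285 features. Their values chose no cells, since all 10 were held out of the clustering from which cell types were named.

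VEGF-A, made by many tissue cells, is the main growth signal for blood vessels and acts through the kinase receptor VEGFR2, the product of Kdr, while VEGFR1, the product of Flt1, binds the same ligand tightly and largely acts as a decoy that limits it. VEGF-C acts mainly through VEGFR3, the product of Flt4, which is known best from lymphatic vessels and from sprouting capillaries. Angiopoietin 1, commonly a product of mural and mesenchymal cells, activates the Tie2 receptor encoded by Tek and keeps vessels stable, angiopoietin 2 can oppose it, and apelin is a peptide whose receptor, encoded by Aplnr, is typical of capillary and venous endothelium. In the thymus the vessels bring progenitors in and take mature T cells out, and their growth factors come from stromal cells of epithelial and mesenchymal origin.

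The libraries were droplet 3′ single-cell RNA-seq of CD45- thymic stroma, sorted after magnetic depletion of CD45+ blood cells, from untreated C57BL/6 mice aged 6 months. The labels give 2 libraries of a Foxn1LacZ mock control, listed as wild type and written WT here, and 2 of the Foxn1LacZ mutant, listed as homozygous LacZ and written Z/Z, an allele that lowers Foxn1, the transcription factor of thymic epithelial cells. Each library came from digested thymi pooled from 10 to 15 mice, so a library is 1 pool and not 1 animal, and the labels do not say that the pools were made on separate days. Sex is given as male in one place and female in another. The question the design puts to these genes is which stromal cells express ligands and which express receptors, and whether the levels differ between WT and Z/Z thymus.

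The files held 13981 called barcodes, from 1192 in WT 2 to 5558 in Z/Z 1, and between 8468086 and 50705511 UMIs (unique molecular identifiers, each standing for 1 captured transcript) per library. After limits on depth and on mitochondrial UMIs and removal of likely doublets, 9846 cells remained, 1458 and 456 in WT 1 and WT 2 and 4455 and 3477 in Z/Z 1 and Z/Z 2. The clusters gave 110, 25, 699 and 670 endothelial cells in that order of libraries, 598, 192, 1146 and 722 fibroblasts, 552, 104, 1942 and 1541 thymic epithelial cells (TECs), and 71, 11, 470 and 328 mural cells, that is pericytes and vascular smooth muscle. WT 2 therefore gave the least precise value in each of these lineages, and its mural value rests on 11 cells. WT 1 and WT 2 shared 202 called barcodes and Z/Z 1 and Z/Z 2 shared 249, against 0 to 6 between genotypes, and leaving out cells with a shared barcode cut the TECs of WT 2 from 104 to 52 and its fibroblasts from 192 to 109. Foxn1 itself stood at 89.3 and 116 CPM in the WT epithelial sums and at 51.5 and 68.8 CPM in the Z/Z sums, the order that the labels imply.

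Levels are given as CPM, the UMIs of a gene over all cells of a type in 1 library on the counts-per-million scale of that sum, and 4 values in a row are always WT 1, WT 2, Z/Z 1 and Z/Z 2. A 3′ method counts transcript ends, so lengths play no part, but capture differs between genes, and levels are compared here between cell types for 1 gene and not between genes. Differences carry edgeR quasi-likelihood standard errors and Benjamini-Hochberg adjusted p-values over all genes of the fit, and a gene was called below an adjusted p of 0.05. The p-values measure the spread between these pools, which may be partly technical.

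In the GRCm38 annotation Kdr lies at chr5:75932827-75978458 and Flt1 at chr5:147561604-147726011, both on the minus strand, while the other receptors are Flt4 at chr11:49609263-49652739, Tek at chr4:94739289-94874976 and Aplnr at chr2:85136225-85139923, all on the plus strand. The ligand genes are Vegfa at chr17:46016993-46032369, Angpt1 at chr15:42424723-42676977, Angpt2 at chr8:18690263-18741562 and Apln at chrX:48025146-48034853 on the minus strand, and Vegfc at chr8:54077606-54187096 on the plus strand. RefSeq promoters of GRCm38.p6, the 250 bases before and 50 bases after a transcript start, were held for 7 of the 10 genes, with 2 starts for Vegfa and none for Aplnr, Angpt1 and Angpt2. The promoters of Kdr (chr5:75978406-75978705) and Flt1 (chr5:147725962-147726261) are printed 5′ to 3′ on the minus strand because these genes encode both kinase receptors of VEGF-A. Their counts in TECs also moved in opposite directions between genotypes, as given further on. The Kdr counts there were few, at 4.09% to 10.5% of the level in empty droplets, barcodes with few UMIs. With the empty-droplet profile subtracted, Kdr was too low in TECs to be tested. Capitals mark AGGAAG, a core of sites for ETS factors, and GGGCGG, a GC box, on either strand.
Kdr promoter: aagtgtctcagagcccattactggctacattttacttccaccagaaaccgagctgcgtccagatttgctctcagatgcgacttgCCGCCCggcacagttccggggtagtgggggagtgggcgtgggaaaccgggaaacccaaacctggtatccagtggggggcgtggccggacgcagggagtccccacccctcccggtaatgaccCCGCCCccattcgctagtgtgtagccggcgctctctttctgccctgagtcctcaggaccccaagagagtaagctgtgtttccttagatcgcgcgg
Flt1 promoter: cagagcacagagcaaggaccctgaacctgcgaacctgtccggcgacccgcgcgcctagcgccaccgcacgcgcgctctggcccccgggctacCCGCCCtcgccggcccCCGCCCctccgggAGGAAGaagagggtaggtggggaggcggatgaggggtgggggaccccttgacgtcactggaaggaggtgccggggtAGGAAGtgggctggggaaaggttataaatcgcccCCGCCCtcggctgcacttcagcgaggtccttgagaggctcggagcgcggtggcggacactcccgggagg
The Kdr window held 2 GGGCGG matches and 0 AGGAAG matches, and the Flt1 window held 3 and 2. AGGAAG occurs in 35.4% and GGGCGG in 35.7% of all 32851 promoters of this length in the table, so either match is common. A match is a run of letters only, and whether any factor binds there was not measured.

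The receptors marked the endothelial cells. Flt1 stood at 2071, 2294, 2584 and 2592 CPM in endothelial cells, against 0.35 to 7.57 CPM in fibroblasts, 7.69 to 43.1 CPM in TECs and 1.70 to 17.4 CPM in mural cells. Kdr stood at 342, 163, 676 and 648 CPM in endothelial cells and at no more than 4.60 CPM in any library of the other lineages. Flt4 stood at 25.6, 26.3, 53.8 and 55.3 CPM, with 1.71 to 3.45 CPM in TECs. For these 3 genes the endothelial libraries lay above every library of the other lineages.

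Tek, the Tie2 receptor, was endothelial but not exclusively so. Endothelial cells had 298, 226, 238 and 223 CPM, fibroblasts 93.0, 82.0, 56.1 and 60.8 CPM, TECs 12.1, 27.6, 3.72 and 4.88 CPM, and mural cells between 0 and 3.45 CPM. Aplnr, the apelin receptor, reached 70.3, 57.9, 38.7 and 30.2 CPM in endothelial cells and no more than 3.32 CPM in any library of another lineage. The order for Tek was thus endothelial, fibroblast, epithelial and mural, with epithelial and mural cells not told apart by the test, at a log2 difference of -1.09 ± 0.68 (SE) for mural against epithelial cells (edgeR adjusted p = 0.202).

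In the fit of 14577 genes over 16 sums, 9 of the 10 genes differed between endothelial cells and fibroblasts, where 41.2% of all genes were called (18.7% higher and 22.5% lower in endothelial cells). The 5 receptors were all higher in endothelial cells, by a log2 fold of 9.13 ± 0.74 for Flt1, 8.34 ± 0.35 for Kdr, 6.01 ± 0.49 for Flt4, 4.60 ± 0.45 for Aplnr and 1.85 ± 0.36 for Tek, with edgeR adjusted p-values between 1.83e-10 and 0.000689. Against TECs, where 50.0% of all genes were called (21.8% higher and 28.2% lower), 8 of the 10 genes differed, and the same 5 receptors were higher in endothelial cells by log2 folds of 4.41 (Flt4) to 8.44 (Kdr). Against mural cells, where 38.5% were called (18.4% higher and 20.1% lower), 7 of the 10 genes differed, with log2 folds of 7.94 ± 0.42 for Kdr, 7.37 ± 0.73 for Flt1, 6.21 ± 0.57 for Tek and 5.84 ± 0.66 for Flt4. Aplnr was also called there, but mural cells held 1 Aplnr UMI in all, so no fold is given.

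**Figure D1:**
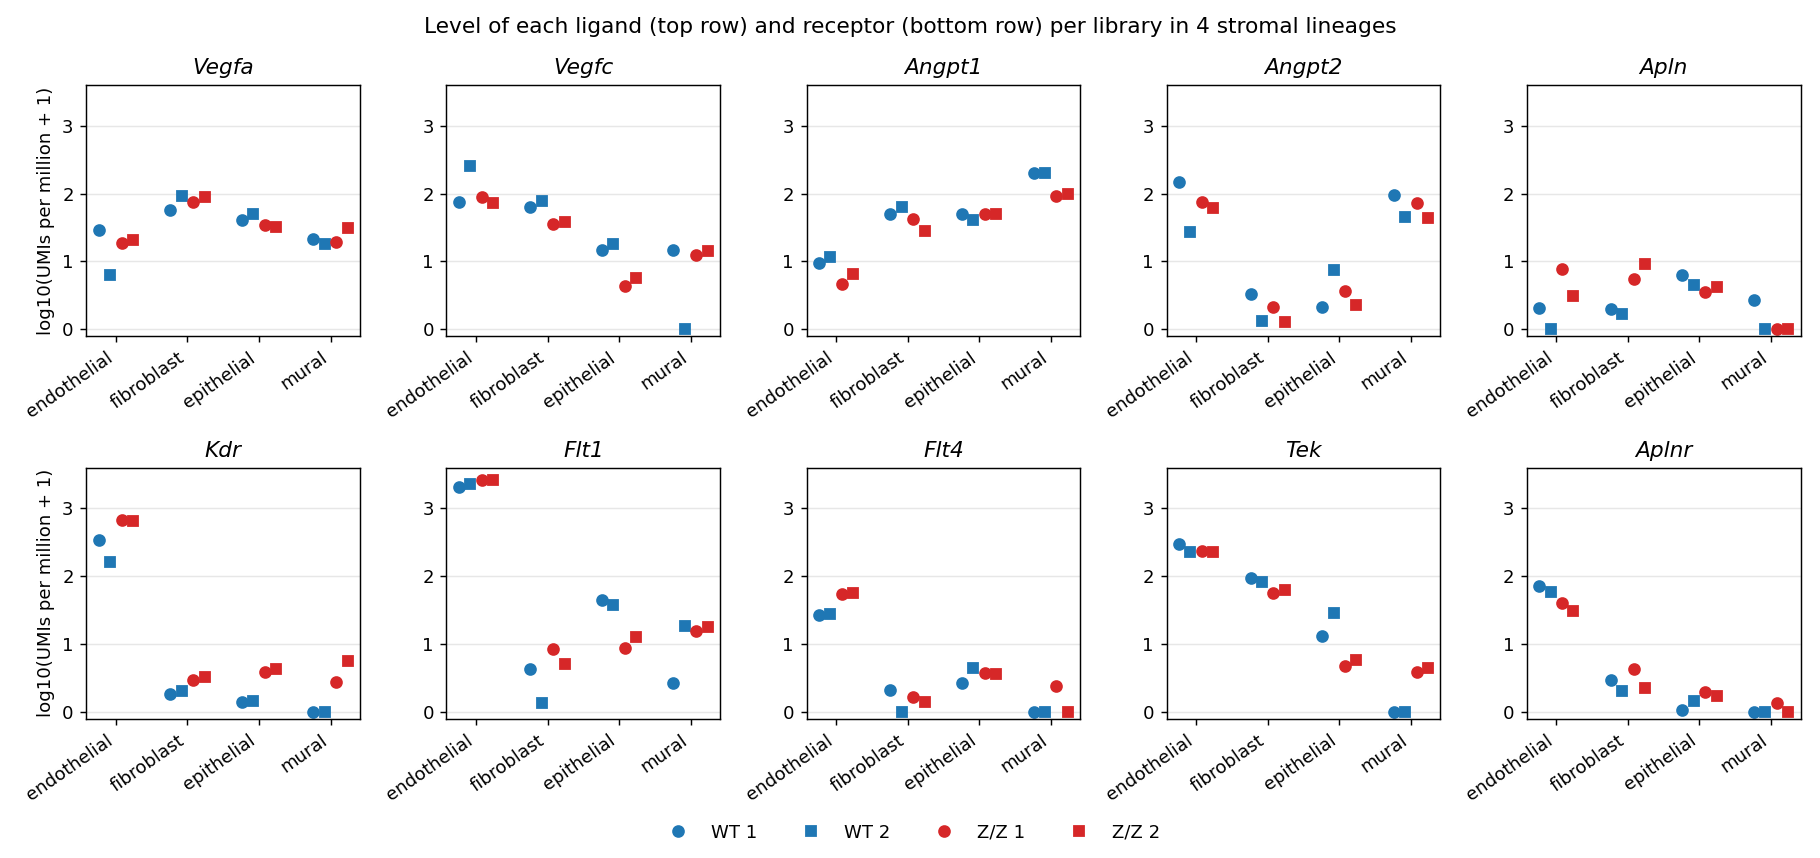
Level of the 5 ligands (top row) and 5 receptors (bottom row) in 4 lineages, as log10(CPM + 1), with 1 point per library and libraries told apart by colour and symbol. The 5 receptors sit highest in endothelial cells in all 4 libraries, while Vegfa sits highest in fibroblasts and Angpt1 in mural cells.

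The ligands were divided among the lineages. Vegfa, the main VEGF receptor ligand, stood at 55.8, 92.6, 73.8 and 89.1 CPM in fibroblasts, 39.4, 48.3, 33.6 and 30.8 CPM in TECs, 20.4, 17.4, 18.4 and 30.5 CPM in mural cells and 27.7, 5.26, 17.9 and 19.5 CPM in endothelial cells. Fibroblasts lay above the other lineages in every library. The log2 differences were 1.37 ± 0.24 against TECs (edgeR adjusted p = 0.000167) and, taken the other way round, -1.92 ± 0.27 for endothelial cells (edgeR adjusted p = 3.37e-05) and -1.62 ± 0.28 for mural cells (edgeR adjusted p = 0.000349). TECs, mural and endothelial cells did not differ past the threshold in any pair, and the edgeR adjusted p of endothelial cells against TECs was 0.105 at a log2 difference of -0.55 ± 0.27.

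Angpt1, the ligand that activates Tie2, was highest in mural cells at 197, 199.8, 90.3 and 96.6 CPM. Fibroblasts had 48.8, 63.5, 41.8 and 26.7 CPM and TECs 48.4, 40.1, 49.0 and 49.3 CPM, ranges that overlapped, and endothelial cells had 3.65 to 10.5 CPM. Mural cells stood above fibroblasts by a log2 fold of 1.70 ± 0.25 (edgeR adjusted p = 6.18e-05) and above TECs by 1.88 ± 0.24 (edgeR adjusted p = 1.22e-05), and endothelial cells stood below mural cells by a log2 difference of -4.56 ± 0.32 (edgeR adjusted p = 3.67e-08). Fibroblasts and TECs differed by 0.19 ± 0.23 on the log2 scale, with a 95% interval from -0.26 to 0.64 (edgeR adjusted p = 0.513).

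Angpt2, the other angiopoietin, was shared by endothelial and mural cells. It stood at 148, 26.3, 74.2 and 60.2 CPM in endothelial cells and 93.5, 43.4, 70.9 and 42.6 CPM in mural cells, against at most 2.29 CPM in fibroblasts and 6.47 CPM in TECs. Endothelial and mural cells overlapped, with a log2 difference of 0.23 ± 0.43 and a 95% interval from -0.61 to 1.06 (edgeR adjusted p = 0.728). Mural cells stood above fibroblasts by a log2 fold of 6.03 ± 0.56 (edgeR adjusted p = 7.89e-07) and above TECs by 5.24 ± 0.53 (edgeR adjusted p = 1.06e-06). Between mural cells and fibroblasts 7 of the 10 genes were called, against 36.9% of all genes (16.6% higher and 20.3% lower in mural cells), and between mural cells and TECs 4 were, against 47.9% (22.2% higher and 25.7% lower).

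Vegfc, the ligand of VEGFR3, was found in endothelial cells at 73.5, 258, 89.4 and 71.0 CPM and in fibroblasts at 63.4, 77.5, 34.5 and 37.7 CPM, with 0 to 16.8 CPM in mural cells and TECs. Fibroblasts exceeded TECs by a log2 fold of 2.96 ± 0.33 (edgeR adjusted p = 2.18e-06), in a comparison where 6 of the 10 genes and 54.6% of all genes were called (26.3% higher and 28.3% lower in fibroblasts). For Vegfc, endothelial cells against fibroblasts gave a log2 difference of 1.08 ± 0.31 (edgeR adjusted p = 0.0114), but this call was lost when Z/Z 1 was left out (0.94, edgeR adjusted p = 0.0601) or Z/Z 2 (1.13, edgeR adjusted p = 0.0568). Apln, the apelin gene, was low throughout, and its highest value among the lineage sums was 8.03 CPM, in the fibroblasts of Z/Z 2. Apln did not differ past the threshold between endothelial cells and fibroblasts (log2 difference -0.11 ± 0.73, 95% interval -1.53 to 1.32, edgeR adjusted p = 0.935), and mural cells held 1 Apln UMI in all.

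Endothelial cells divided into a main capillary cluster with 60, 14, 429 and 417 cells, a second capillary cluster with 3, 0, 74 and 61, whose leading genes were Penk, Col13a1 and Esm1 and which is called the Esm1 cluster here, an arterial cluster with 19, 5, 83 and 69 and a venous cluster with 26, 5, 86 and 101. Esm1, secreted by sprouting tip cells, was among the genes held out of the clustering. No cluster could be named lymphatic, and the summed lymphatic marker list stood at 11.1 to 69.2 CPM in endothelial cells. Among the endothelial clusters the lymphatic markers were highest in the venous one, with a score of 1 against 0.971 for the venous list. No lymphatic marker was detected in 20% of its cells, and whether it holds lymphatic cells was not tested. In the tests between classes the capillary clusters form 1 sum per library, and WT 2 entered with its capillary sum only, since its arterial and venous sums held 5 cells each.

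Kdr was a capillary gene within the endothelium. The main capillary cluster had 463, 297, 819.5 and 869 CPM, the venous cluster 255, 50.5, 238 and 226 CPM and the arterial cluster 151, 50.1, 253 and 164 CPM. The Esm1 cluster had 1367 and 1274 CPM in Z/Z 1 and Z/Z 2, above every other endothelial class, and 963 CPM in the 3 cells of WT 1. Capillary cells exceeded arterial cells by a log2 fold of 2.00 ± 0.23 (edgeR adjusted p = 3.98e-05) and venous cells by 1.54 ± 0.22 (edgeR adjusted p = 0.000135). Arterial and venous cells differed by -0.47 ± 0.24, which did not pass (edgeR adjusted p = 0.196).

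Flt1 was even across the vessel tree. It stood at 2141, 1735, 2393 and 2520.0 CPM in the main capillary cluster, 2127, 3055, 2554 and 2199 CPM in arterial cells and 1827, 2474, 2360.4 and 2458 CPM in venous cells, ranges that overlapped. The 3 log2 differences between classes lay between -0.07 and 0.11, each with an SE of 0.14, and the widest 95% interval reached from -0.33 to 0.20 for arterial against venous cells. The Esm1 cluster stood higher, at 4056 and 3862 CPM in the Z/Z libraries. Flt4 had the same high point, at 110.3 and 109 CPM in the Esm1 cluster of the Z/Z libraries against 49.7 and 47.6 CPM in their main capillary cluster, but none of its 3 comparisons passed.

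Aplnr sat in capillaries. The main capillary cluster had 128, 107, 65.7 and 44.1 CPM and held 68.8% to 83.3% of all endothelial Aplnr UMIs in each library, while venous cells had 32.7, 50.5, 17.3 and 25.5 CPM. Arterial cells held 0, 0, 2 and 0 Aplnr UMIs, so no fold against them is given, but they were called below capillary cells (edgeR adjusted p = 3.65e-05) and below venous cells (edgeR adjusted p = 0.000965). Capillary cells exceeded venous cells by a log2 fold of 1.18 ± 0.30 (edgeR adjusted p = 0.00846), a call lost without Z/Z 1, at 1.03 (edgeR adjusted p = 0.100), and after thinning cells to equal depth, at 1.05 (edgeR adjusted p = 0.107). The call of arterial below venous cells was also lost after thinning (edgeR adjusted p = 0.0983).

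Tek leaned towards arteries, with 404, 267, 338 and 352 CPM in arterial cells, 269.7, 249.6, 284 and 245 CPM in the main capillary cluster and 278, 126, 140.4 and 147 CPM in venous cells. Arterial exceeded venous cells by a log2 fold of 0.92 ± 0.19 (edgeR adjusted p = 0.00236), a call lost without Z/Z 2 (0.80, edgeR adjusted p = 0.0977). Capillary cells differed from neither past the threshold.

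The endothelial ligands differed by vessel type. Vegfc was arterial, at 297, 701, 585 and 414 CPM against 9.30, 59.4, 13.1 and 11.1 CPM in the main capillary cluster, and arterial cells held 68.1% to 85.7% of endothelial Vegfc UMIs. The log2 fold of arterial over venous cells was 4.47 ± 0.29 (edgeR adjusted p = 1.73e-07) and that of capillary against arterial cells -5.12 ± 0.27 (edgeR adjusted p = 4.15e-08). Angpt2 was highest in venous cells, at 396, 126, 182 and 157 CPM against 37.2, 0, 69.4 and 40.1 CPM in the main capillary cluster. Venous cells held 87.1%, 100%, 43.8% and 57.8% of endothelial Angpt2 UMIs. Venous cells exceeded both other classes, with log2 differences of -2.29 ± 0.30 for capillary against venous cells (edgeR adjusted p = 5.64e-05) and -6.00 ± 0.56 for arterial against venous cells (edgeR adjusted p = 3.44e-06), the latter on 5 arterial UMIs.

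Vegfa was higher in arterial than in venous cells by a log2 fold of 2.45 ± 0.65 (edgeR adjusted p = 0.0131), on arterial levels of 133, 16.7, 28.7 and 41.9 CPM that were spread widely between libraries. Without Z/Z 2 this call was lost at 3.17 (edgeR adjusted p = 0.0620), and the call of capillary below arterial cells, at -1.61 ± 0.52 (edgeR adjusted p = 0.0495), was lost without WT 1 at -0.94 (edgeR adjusted p = 0.0684) and without Z/Z 2 at -2.02 (edgeR adjusted p = 0.223). That Vegfa call of capillary below arterial cells was also lost without shared barcodes, at -1.50 (edgeR adjusted p = 0.0791). Among these classes Apln UMIs were seen in the main capillary cluster, with 1, 0, 34 and 10 UMIs, and 0 were counted in the Esm1, arterial and venous clusters. Most of them came from Z/Z 1, so no fold between the classes is given.

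Of the 8 genes tested between classes, 5 were called for capillary against arterial cells, 3 for capillary against venous cells and 5 for arterial against venous cells. Among the 7620 genes of that fit the shares called were 16.7% (7.47% higher and 9.27% lower in capillary cells), 27.1% (11.9% higher and 15.2% lower) and 24.5% (11.7% higher and 12.7% lower in arterial cells).

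**Figure D2:**
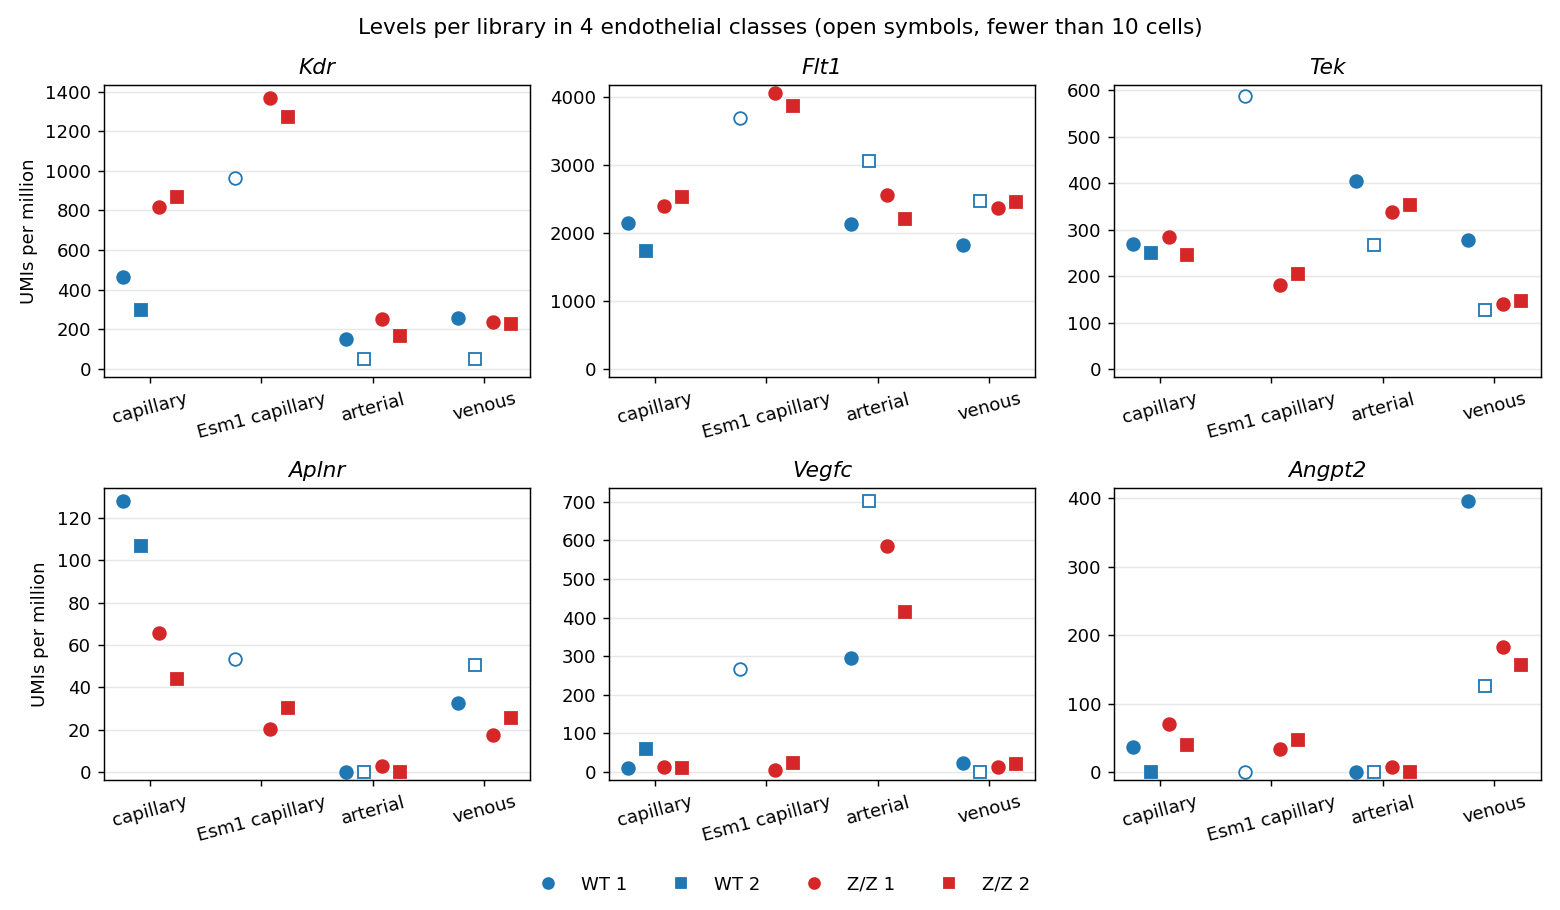
Level in CPM (linear axes that differ between panels) of Kdr, Flt1, Tek, Aplnr, Vegfc and Angpt2 in the main capillary, Esm1 capillary, arterial and venous clusters, 1 point per library, open where the sum held under 10 cells. In the Z/Z libraries Kdr is highest in the Esm1 cluster and next in the main capillaries, Vegfc stands out in arteries, Angpt2 in veins and Aplnr in the main capillaries.

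Outside the endothelium several of the genes were concentrated in 1 class. Tek in fibroblasts came mostly from the cluster with Pi16, a marker of adventitial fibroblasts, among its leading genes, which had 278, 373, 178 and 144 CPM and held 94.7%, 94.0%, 86.4% and 90.8% of fibroblast Tek UMIs. These levels overlapped those of endothelial classes. In TECs, 62.4% and 73.4% of the Tek UMIs of WT 1 and WT 2 lay in tuft-like cells, chemosensory cells of the medulla, which had 144 and 365 CPM there on 39 and 7 cells and 70.7 and 137 CPM in the Z/Z libraries on 7 and 22 cells. After thinning to 2000 UMIs, 32.9% of Pi16 fibroblasts of WT 1 had a Tek UMI (95% Clopper-Pearson interval 25.5% to 41.0%). Of 62 smooth muscle cells of the same library 0 had one, which allows a share of up to 4.84%. That limit is 3 over the number of cells and not a Clopper-Pearson bound.

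Vegfa had its highest mean level in tuft-like cells, at 151, 124, 165 and 161 CPM on 39, 7, 7 and 22 cells. Fibroblast cluster 3 was next by its mean, at 67.8, 115, 56.7 and 183 CPM on 288, 120, 10 and 13 cells. The Inmt and Pi16 fibroblast clusters followed at 79.5, 86.5, 95.8 and 100.2 CPM and at 45.9, 47.5, 107 and 98.9 CPM, and neighbours in this order did not differ by more than their spread over libraries. Arterial Vegfc, at a mean of 432 ± 145 CPM (SD over the 3 libraries with at least 10 cells), stood above the next class by more than both spreads. The next classes were fibroblast cluster 4, scored as Postn fibroblasts, with 109, 138, 80.7 and 117 CPM, and the Inmt fibroblasts with 102, 118, 52.3 and 44.6 CPM.

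Among single classes the highest Angpt1 means were in 2 unnamed epithelial clusters. Epithelial cluster 4, led by genes that include Slit3, Gli2 and Trp63, had 494, 523, 162 and 199.8 CPM on 19, 9, 159 and 58 cells, and cluster 0 had 258, 363, 94.6 and 139 CPM on 17, 5, 279 and 170 cells. Vascular smooth muscle had 208, 193, 91.2 and 78.2 CPM, and pericytes had 87.9 and 171 CPM in the Z/Z libraries. None of these classes differed from its neighbour by more than the spread between libraries, so their order is not fixed. Cortical TEC-like cells had 142, 70.3, 67.0 and 58.5 CPM. In vascular smooth muscle, Angpt2 stood at 94.0, 40.7, 82.9 and 49.5 CPM, below venous endothelium.

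Outside the endothelium Flt1 was found in several WT epithelial classes. Epithelial cluster 4 had 110.6, 0, 6.28 and 10.5 CPM and the basal or goblet-like class 92.9, 153, 6.93 and 0 CPM, with 3 to 19 cells in each WT sum, and pericytes had 20.0 and 52.2 CPM in the Z/Z libraries. The mTEC2-like class, mature medullary TECs, had 72.3, 53.0, 7.59 and 17.2 CPM and held 75.4% and 80.2% of the epithelial Flt1 UMIs of WT 1 and WT 2 but 3.23% and 11.4% of those of Z/Z 1 and Z/Z 2.

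**Figure D3:**
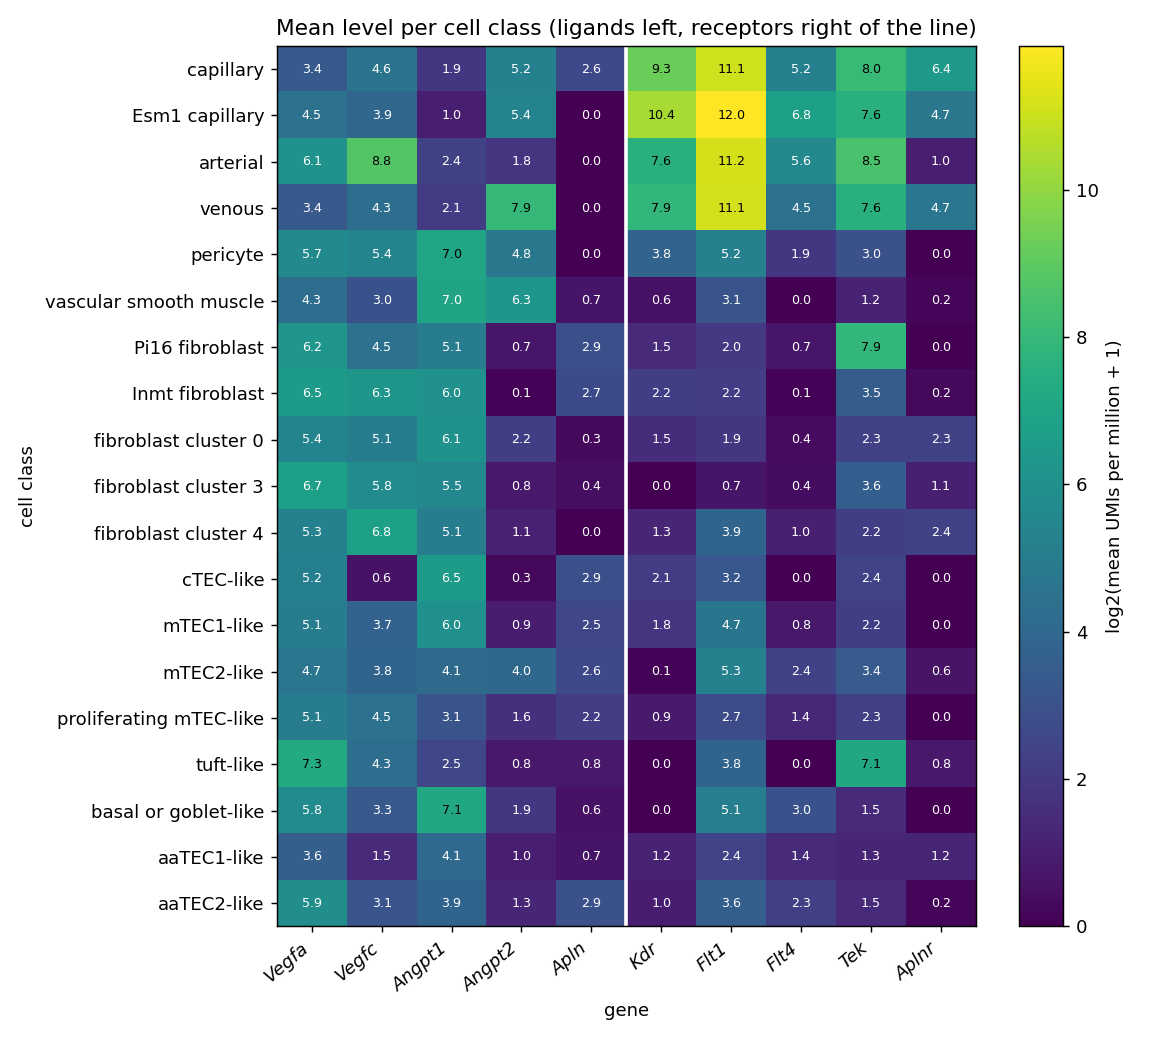
Mean level of each gene (columns, ligands left and receptors right of the line) in a chosen set of cell classes (rows). Values are log2(CPM + 1) of the mean over libraries with at least 10 cells, written in each field and shown by colour. The unnamed epithelial clusters are not drawn. Receptors are brightest in the endothelial classes, with Tek also bright in Pi16 fibroblasts and tuft-like cells. Angpt1 is bright in smooth muscle, pericytes and basal or goblet-like cells.

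Across 18 named classes the genes most like the VEGF receptors included other endothelial genes, measured by Pearson's r of log2(CPM + 1) class means over 10294 genes. For Flt1 the nearest were Egfl7 (r = 0.978), an endothelial secreted protein, Arap3 (0.973) and Ptprb (0.971), the phosphatase that acts on Tie2. Egfl7 is also on the marker list by which clusters were named endothelial. For Kdr the nearest were Clec14a (0.969), Rasgrp3 (0.957) and Git1 (0.944). Flt4 was most like Sox18 (0.931), a transcription factor of endothelium, Afap1l1 (0.908) and Gata2 (0.907), and Aplnr most like Lhx6 (0.947), Car4 (0.890) and Xiap (0.875). Tek was most like Lmo2 (0.890), Ccnyl1 (0.877) and Rnf220 (0.874).

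The nearest genes of the ligands were Rasa4 (0.908), A730049H05Rik (0.858) and Car4 (0.829) for Angpt2, Bcl6 (0.836), Gucy1a2 (0.831) and Rbms3 (0.823) for Angpt1, Foxn2 (0.818), Ifnar1 (0.741) and Peak1 (0.728) for Vegfc, Ctsa (0.783), Clcc1 (0.771) and Abl1 (0.762) for Vegfa, and Senp7 (0.780), Marf1 (0.778) and Thoc3 (0.744) for Apln. Among the 10 genes themselves the closest pairs were Flt1 with Flt4 (0.861) and Flt1 with Kdr (0.850), while Vegfa with Kdr gave -0.43. The classes share libraries and differ in depth and cell number, so these values describe and are not tested.

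In single cells the share with a UMI followed depth closely, so cells were thinned to 2000 UMIs each. Of endothelial cells, 94.3%, 92.0%, 95.3% and 96.9% then had a Flt1 UMI and 36.2%, 44.0%, 35.7% and 37.0% a Tek UMI. A Kdr UMI was found in 40% (95% Clopper-Pearson interval 30.6% to 50.0%), 20.0% (6.83% to 40.7%), 64.4% (60.7% to 68.0%) and 65.0% (61.2% to 68.6%), or 70.9%, 56.0%, 83.7% and 82.8% without thinning. The 2 Z/Z intervals lay above that of WT 1 and that of WT 2. In TECs, which should lack Kdr, 0.187% to 0.980% of thinned cells had a Kdr UMI. Median depth before thinning was 4928 to 6463 UMIs in endothelial cells and 6010.5 to 16293.5 in TECs. These intervals cover counting error only. Thinned shares for the ligands in the lineage chosen for each were 7.82% to 15.9% for Vegfa in fibroblasts and 13.8% to 36.6% for Angpt1 in mural cells. In endothelial cells they were 4.00% to 8.57% for Angpt2 and 7.53% to 24% for Vegfc. For Apln in fibroblasts they were 0% to 1.39%. There 0 of 588 cells in WT 1 allows up to 0.510%, again as 3 over the number of cells.

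Between genotypes, the endothelial change was in Kdr. Kdr stood at 342 and 163 CPM in WT and 676 and 648 CPM in Z/Z, groups that did not overlap, and rose by a log2 fold of 1.28 ± 0.28 (edgeR adjusted p = 0.0422). It was the only one of the 9 genes tested that was called, where 2.03% of the 11357 genes were called (1.05% higher and 0.986% lower in Z/Z). The call was close to the threshold and was lost when WT 2 was left out (0.93, edgeR adjusted p = 0.0622), when Z/Z 1 was (1.27, edgeR adjusted p = 0.0508) and when cells with shared barcodes were (1.23, edgeR adjusted p = 0.0950). In the main capillary cluster alone the log2 fold was 1.15 (edgeR adjusted p = 0.0660).

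Flt4 and Aplnr came next. Flt4 had 25.6 and 26.3 CPM in WT and 53.8 and 55.3 CPM in Z/Z, a log2 difference of 1.07 ± 0.30 (edgeR adjusted p = 0.0853), and Aplnr had 70.3 and 57.9 CPM in WT and 38.7 and 30.2 CPM in Z/Z, a difference of -0.96 ± 0.28 (edgeR adjusted p = 0.0945). Neither passed, though in both the groups did not overlap, as for 53.4% of all genes tested there. Flt1 differed by 0.26 ± 0.20 and Tek by -0.23 ± 0.22, with 95% intervals from -0.13 to 0.65 and from -0.66 to 0.19. Angpt2, Vegfc, Angpt1 and Vegfa gave differences between -0.99 and -0.27 with edgeR adjusted p-values of 0.323 to 0.792, and Apln was too low to test.

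Several other values moved with genotype in these endothelial sums. The Esm1 cluster made up 2.73% and 0% of WT and 10.6% and 9.10% of Z/Z endothelial cells, and the pericyte marker list stood at 84.2 and 68.4 CPM in WT and 322 and 282 CPM in Z/Z, with 4 of its 6 genes called higher. Kdr in empty droplets, barcodes with few UMIs, was 6.62 and 4.11 CPM in WT and 69.4 and 81.3 CPM in Z/Z. Within the main capillary cluster, which leaves out the Esm1 cluster, Kdr was still 463 and 297 CPM in WT against 819.5 and 869 CPM in Z/Z. After 5% of the UMIs of each sum were subtracted as the empty-droplet profile of its library, the Kdr log2 fold was 1.30 (edgeR adjusted p = 0.0496). With endothelial cluster 4, whose leading genes include the mural genes Pdgfrb and Rgs4, left out of the sums, it was 1.31 and no longer passed (edgeR adjusted p = 0.0511). In sums such as these, a change in the share of cells that express a gene and a change in RNA per cell cannot be told apart. The thinned share of endothelial cells with a Kdr UMI, given above, was higher in each Z/Z library than in either WT library.

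In fibroblasts 2 of 8 genes tested were called, where 2.96% of 13839 genes were (1.73% higher and 1.23% lower). Vegfc fell by 0.89 ± 0.18 on the log2 scale, from 63.4 and 77.5 CPM in WT to 34.5 and 37.7 CPM in Z/Z (edgeR adjusted p = 0.0309). Apln rose by 2.86 ± 0.53 (edgeR adjusted p = 0.0229), from 0.96 and 0.70 CPM, or 8 and 2 UMIs, to 4.51 and 8.03 CPM, or 53 and 59 UMIs. For both genes the groups did not overlap, as for 50.8% of all genes tested there.

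Both calls depended on single libraries. Leaving out WT 2, Z/Z 1 or Z/Z 2 took the edgeR adjusted p of Vegfc to 0.108, 0.324 and 0.377, at log2 differences of -0.73, -0.82 and -0.96. Leaving out WT 1, Z/Z 1 or Z/Z 2 took that of Apln to 0.0597, 0.231 and 0.348, at 3.16, 3.24 and 2.41. Without shared barcodes they were 0.162 (-0.62) and 0.0656 (2.73). Leaving out Z/Z 1 or Z/Z 2 left 0 genes of the whole fibroblast fit called in edgeR, with 1871 and 1344 at an unadjusted p under 0.05.

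The fibroblast clusters themselves differed in size between genotypes. Cluster 3, scored as Postn fibroblasts like cluster 4, held 48.2% and 62.5% of WT but 0.873% and 1.80% of Z/Z fibroblasts. Cluster 0 held 2.34% and 4.17% of WT but 51.6% and 25.5% of Z/Z fibroblasts. It stayed unnamed, and its leading genes included Kcnj8 and Vtn, of the pericyte marker list, and Hspa1a, which digestion induces. Within Pi16 and Inmt fibroblasts alone, Apln still rose, by 2.91 (edgeR adjusted p = 0.00600), the Vegfc difference was -0.16 (edgeR adjusted p = 0.690), and Tek fell by 1.25 (edgeR adjusted p = 0.00299). Of the genes described, 3 were called in that setting, Apln and Tek among them. In all fibroblasts Tek had given -0.52 ± 0.16 (edgeR adjusted p = 0.116), and Angpt1 had given -0.63 ± 0.24 (edgeR adjusted p = 0.206). Vegfa in all fibroblasts differed by 0.22 ± 0.24, with a 95% interval from -0.25 to 0.69. By class, Pi16 fibroblasts had 45.9 and 47.5 CPM of Vegfa in WT and 107 and 98.9 CPM in Z/Z. Inmt fibroblasts had 79.5 and 86.5 CPM in WT and 95.8 and 100.2 CPM in Z/Z. In fibroblast clusters 0, 3 and 4 the Vegfa levels of the genotypes overlapped.

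In TECs 4 of 10 genes were called, in a comparison where 21.7% of 18841 genes were called (9.85% higher and 11.9% lower). Flt1 fell by 1.91 ± 0.26 on the log2 scale, from 43.1 and 37.1 CPM to 7.69 and 11.7 CPM (edgeR adjusted p = 0.0120). Vegfc fell by 1.76 ± 0.34, from 13.8 and 16.8 CPM to 3.32 and 4.77 CPM (edgeR adjusted p = 0.0227), and Tek fell by 2.02 ± 0.47, from 12.1 and 27.6 CPM to 3.72 and 4.88 CPM (edgeR adjusted p = 0.0365). Kdr rose by 3.04 ± 0.57 (edgeR adjusted p = 0.0219), from 0.41 and 0.43 CPM, or 5 and 1 UMIs, to 2.93 and 3.33 CPM, or 59 and 60 UMIs. The groups did not overlap for these 4 genes, as for 67.2% of all genes tested there.

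The TEC types behind these sums were not the same in the genotypes. The mTEC2-like class made up 36.1% and 35.6% of WT but 1.80% and 3.50% of Z/Z TECs, and tuft-like cells 7.07% and 6.73% of WT but 0.360% and 1.43% of Z/Z TECs. The aaTEC2-like class, age-associated epithelial cells, made up 2.17% and 0% of WT but 28.5% and 24.7% of Z/Z TECs, and with it left out Flt1, Vegfc, Tek and Kdr were still called, at -1.90, -2.28, -1.97 and 3.12 (edgeR adjusted p = 0.0144, 0.0151, 0.0440 and 0.0244). The mTEC2-like and tuft-like cells were the classes that held most of the WT Flt1 and Tek UMIs. Within mTEC2-like cells alone Flt1 differed by -2.19 (edgeR adjusted p = 0.457), Vegfc by -0.63 (edgeR adjusted p = 0.772) and Tek by 0.12 (edgeR adjusted p = 0.974), and 0 of the 11589 genes of that fit were called in edgeR, with 1140 at an unadjusted p under 0.05. Since most WT epithelial Tek UMIs lay in tuft-like cells, where Tek was not tested, that value does not cover the main Tek class. The Kdr level of TECs was 4.09% to 10.5% of that in the empty droplets of the same library, which themselves held more Kdr in Z/Z. For Flt1 the TEC level was 97.2%, 113%, 3.33% and 4.61% of the empty-droplet level. Flt1 in the empty droplets stood at 44.3, 32.9, 231 and 254 CPM. The matching TEC shares were 90.1%, 168%, 21.0% and 20.4% for Vegfc and 37.2%, 97.9%, 9.27% and 12.3% for Tek. With the empty-droplet profile subtracted at 5% of the UMIs, Kdr was too low in TECs to be tested, while Flt1, Vegfc and Tek were still called lower (edgeR adjusted p = 0.00802, 0.0204 and 0.0295).

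The TEC calls were lost under several settings. Without shared barcodes 1 gene of the whole TEC fit was called in edgeR and 0 of these 10, with 3434 genes at an unadjusted p under 0.05, and without Z/Z 1 the whole fit gave 0, with 4547. Flt1 then gave -1.76 (edgeR adjusted p = 0.133) and -1.64 (edgeR adjusted p = 0.0664), Vegfc -1.53 (edgeR adjusted p = 0.161) and -1.53 (edgeR adjusted p = 0.145), and Kdr 2.24 (edgeR adjusted p = 0.237) and 3.11 (edgeR adjusted p = 0.152). Tek gave -1.28 without shared barcodes and -1.31 without WT 2 (edgeR adjusted p = 0.204 and 0.0533), and without Z/Z 1 and Z/Z 2 it gave -1.85 and -2.22 (edgeR adjusted p = 0.197 and 0.128). Without Z/Z 2 Kdr gave 2.95 (edgeR adjusted p = 0.148) and Vegfc -2.03 (edgeR adjusted p = 0.0766), and without WT 1 Kdr gave 2.95 (edgeR adjusted p = 0.0776). Dissociation genes, which digestion induces, stood at 7301 and 9018 CPM in WT and 18739.5 and 16323 CPM in Z/Z TECs, with 6 of 10 called higher. The fibroblast marker list stood at 123 and 110.0 CPM in WT and 209.6 and 232 CPM in Z/Z TECs, with 3 of 5 called higher, and the smooth muscle list at 183 and 98.8 CPM in WT and 335 and 358 CPM in Z/Z, with 2 of 4 tested called higher. The pericyte list stood at 273, 192, 218 and 223 CPM, with 3 of 6 called higher, and the part of these lists in the results was not tested.

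The ligands Vegfa and Angpt1 did not differ past the threshold in TECs. Vegfa had 39.4 and 48.3 CPM in WT and 33.6 and 30.8 CPM in Z/Z, a difference of -0.29 ± 0.19 with a 95% interval from -0.67 to 0.09, and Angpt1 a difference of 0.29 ± 0.17 with an interval from -0.04 to 0.62. Aplnr did not pass (edgeR adjusted p = 0.114) on 1, 1, 20 and 13 UMIs.

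In mural cells 0 of 5 genes tested passed in edgeR or in DESeq2, where edgeR called 0.0881% of 9078 genes (0.0661% higher and 0.0220% lower), and 1 had an unadjusted p under 0.05. That gene was Angpt1, at 197 and 199.8 CPM in WT and 90.3 and 96.6 CPM in Z/Z. Its log2 difference was -1.07 ± 0.26 (edgeR adjusted p = 0.214), in groups that did not overlap, as for 42.9% of all genes tested there. Without WT 2, whose sum held 11 cells, the difference was -1.08 and passed (edgeR adjusted p = 0.00181). Within vascular smooth muscle alone it was -1.19 (edgeR adjusted p = 0.199). Angpt2 differed by -0.45 ± 0.40 and Vegfa by 0.29 ± 0.51. The fibroblast marker list stood at 131 and 34.8 CPM in WT and 853 and 537 CPM in Z/Z mural sums, and its part in the mural values was not tested.

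**Figure D4:**
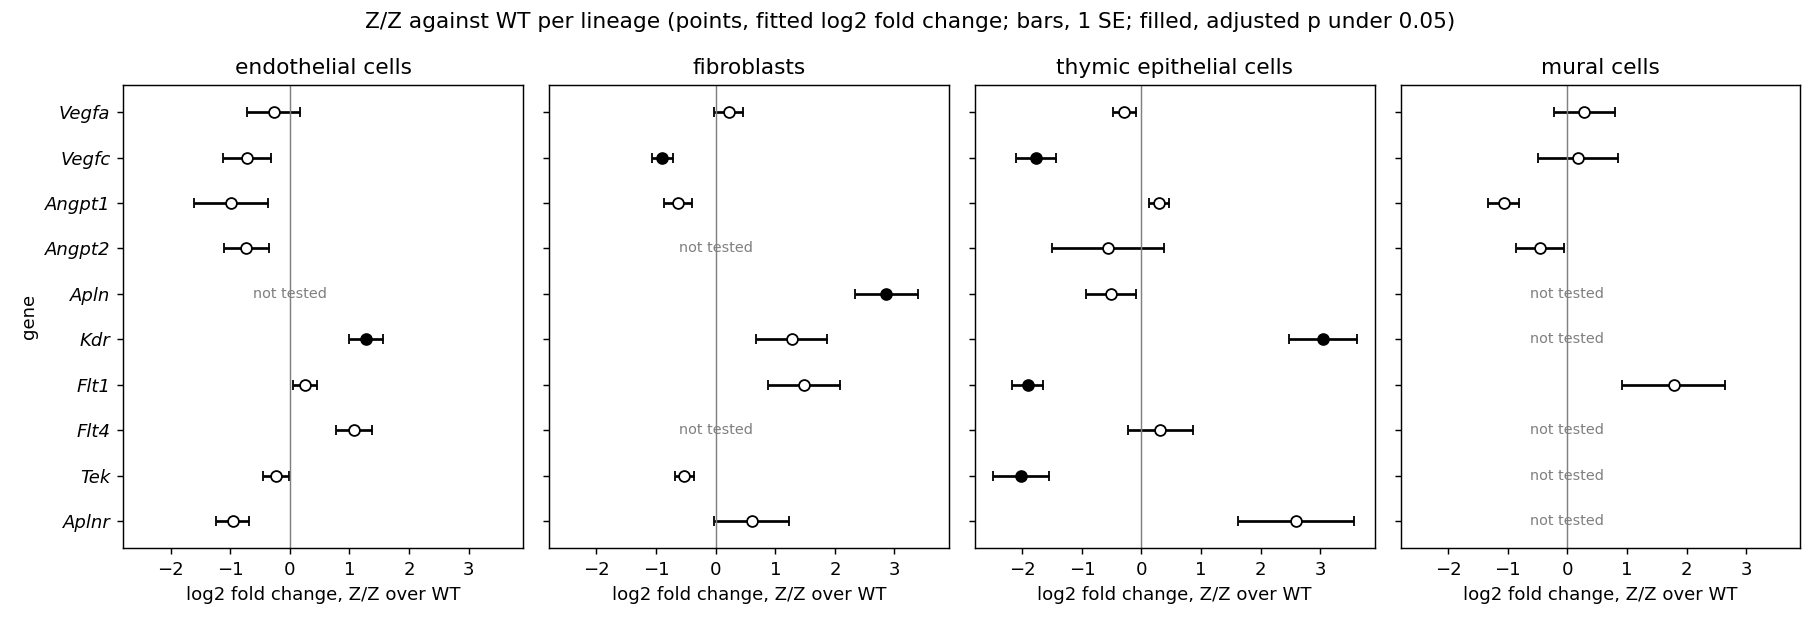
Log2 fold change of Z/Z over WT for each tested gene in 4 lineages, with bars of 1 SE from edgeR and filled symbols where the adjusted p was below 0.05. Filled symbols are Kdr in endothelial cells, Vegfc and Apln in fibroblasts, and Kdr, Flt1, Vegfc and Tek in thymic epithelial cells.

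The genotype differences were compared between lineages in 1 fit of 17628 genes. Between fibroblasts and endothelial cells 0 of the 10 genes differed in edgeR, where 0.386% of all genes did (0.125% higher and 0.261% lower), and 1 of the 10 had an unadjusted p under 0.05. Between TECs and endothelial cells 3 differed, where 6.55% of all genes did (2.88% higher and 3.67% lower), and these were Flt1 (-2.38 ± 0.39, edgeR adjusted p = 0.00282), Tek (-1.80 ± 0.42, edgeR adjusted p = 0.0193) and Aplnr (edgeR adjusted p = 0.0276, with 2 WT epithelial UMIs). Between TECs and fibroblasts, where 12.9% did (6.78% higher and 6.14% lower), they were 3 again, namely Flt1 (-3.41 ± 0.53, edgeR adjusted p = 0.000856), Apln (-3.48 ± 0.84, edgeR adjusted p = 0.0137) and Tek (-1.39 ± 0.41, edgeR adjusted p = 0.0375). Without shared barcodes neither Tek difference passed (edgeR adjusted p = 0.0534 and 0.191). The Kdr difference in TECs and that in endothelial cells did not differ past the threshold, at 1.75 ± 0.51 (edgeR adjusted p = 0.0577).

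The wider pathway was read from 7 lists with 38 genes in all. In endothelial cells 3 of 32 tested were called, where 2.03% of all genes were, and all 3 were higher in Z/Z. Esm1, the tip cell gene, stood at 5.33, 0, 48.3 and 32.7 CPM, a log2 fold of 3.19 ± 0.57 (edgeR adjusted p = 0.0191). Adm, a vasodilator peptide made by sprouting and oxygen-starved cells, stood at 7.46, 0, 43.8 and 28.7 CPM, a log2 fold of 2.56 ± 0.56 (edgeR adjusted p = 0.0422). Pgf, a ligand of VEGFR1, stood at 1.07, 0, 24.6 and 13.4 CPM and was called (edgeR adjusted p = 0.0404), with 1 UMI in WT, so no fold is given.

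These genes were not in the same capillaries. In the Z/Z libraries Esm1 stood at 252 and 239 CPM in the Esm1 cluster and 4.93 and 3.12 CPM in the main capillary cluster, whereas Pgf stood at 1.58 and 4.04 CPM in the Esm1 cluster and 48.5 and 23.6 CPM in the main one. Adm followed Pgf, at 18.9 and 10.1 CPM in the Esm1 cluster and 78.5 and 53.0 CPM in the main one. Apln followed them, with 97.1% and 100% of the endothelial Apln UMIs of the Z/Z libraries in the main capillary cluster. Nrp1, the co-receptor that VEGF-A shares with Kdr, stood at 1279 and 1367 CPM in the Esm1 cluster of Z/Z.

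In fibroblasts 3 of 30 pathway genes rose and 1 fell, where 2.96% of all genes were called. Igfbp3, which binds insulin-like growth factors, rose by a log2 fold of 1.90 ± 0.20, Thbs1, an inhibitor of vessel growth, by 1.48 ± 0.18, and Adm by 1.17 ± 0.16, with edgeR adjusted p-values of 0.00184, 0.00378 and 0.00666. Nrp1 fell by 1.01 ± 0.16 on the log2 scale (edgeR adjusted p = 0.0133), from 373 and 434 CPM to 194 and 188 CPM. In TECs 9 of 33 rose and 3 fell, where 21.7% of all genes were called, among them genes of the VEGF family, with Pgf (10.4, 22.0, 75.5 and 87.3 CPM), Vegfb, Vegfd and Nrp1 higher by log2 folds of 1.15 to 2.57 and Nrp2 lower by 1.22 ± 0.17 on the same scale. Of 7 oxygen-sensing genes 3 rose in TECs and 0 fell, namely Hif1a, Epas1 and Egln2 by log2 folds of 0.96 to 1.36. In mural cells 0 of 19 passed in edgeR, where 0.0881% of all genes did, with 4 at an unadjusted p under 0.05.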

How the data were processed

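Single-cell 3′ libraries of CD45- thymic stroma were made by the authors, 2 WT and 2 Z/Z pools, aligned with Cell Ranger (version 7.01 per the labels) to mm10, and deposited as UMI counts per gene and barcode. Sex and kit version are given in conflicting ways. No column was left unmapped (0).

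Cells with at least 1000 genes and under 20% mitochondrial UMIs were kept (10245), and the top 3.9% of Scrublet scores per library were removed (399), because its own threshold marked 0.80%. Ribosomal and haemoglobin genes (109) were left out. Cells were clustered with scanpy 1.11.5 and leidenalg 0.10.2 without 188 genes, the 10 described, the pathway and marker genes among them. Clusters were named by marker scores whose thresholds were set after the data were seen. Counts were summed per library and type (at least 10 cells in class tests) and tested with edgeR 4.0.16 in R 4.3.3, TMM factors, quasi-likelihood F test, Benjamini-Hochberg, adjusted p under 0.05. SEs and 95% intervals (1.96 SE) are derived from that fit. The factor 1.96 is that of a normal distribution, so with so few sums these intervals are too narrow. The scripts were tested on simulated counts. DESeq2 1.42.0 and the other alternatives are given at the end.

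The members and lists were chosen with earlier results of these data known. All 10 members are named, pathway genes are named when called or when they bear on a member, and the 3 genes most like each member are given. Depth was 8468086 to 50705511 UMIs per library. No genome sequence was used beyond the RefSeq promoters.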

Additional observations from a re-analysis of the deposited data

Results flagged for a closer look

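The difference between Z/Z and WT was not the same in all lineages for 4 of the 10 genes, by an interaction test in edgeR over 17628 genes. For Flt1 the log2 difference in TECs minus that in endothelial cells was -2.38, and minus that in fibroblasts -3.41. For Tek these were -1.80 and -1.39. Aplnr gave 3.43 for TECs minus endothelial cells, on 1, 1, 20 and 13 UMIs in TECs, so that its size is a fitted value and not a measured ratio, and this call was lost without WT 1 (1.49, edgeR adjusted p = 0.670), without Z/Z 1 (3.33, edgeR adjusted p = 0.113), without shared barcodes (1.93, edgeR adjusted p = 0.455) and on thinned cells (0.20). Apln gave -3.48 for TECs minus fibroblasts, lost without WT 1 (-3.31, edgeR adjusted p = 0.223) and without Z/Z 2 (-3.12, edgeR adjusted p = 0.0842). The Tek difference against fibroblasts was lost without WT 2 (-0.79, edgeR adjusted p = 0.0671), without shared barcodes (-0.84, edgeR adjusted p = 0.191) and on thinned cells (-1.23, edgeR adjusted p = 0.104). That against endothelial cells was lost without shared barcodes (-1.32, edgeR adjusted p = 0.0534), and leaving out 1 library moved it between -2.91 without WT 1 and -1.08 without WT 2. The median of all genes for TECs minus endothelial cells was -0.24, so the Flt1 and Tek values lie beyond that shift and Aplnr lies opposite to it. As given above, the mTEC2-like and tuft-like classes, which held most of the WT epithelial Flt1 and Tek, were a smaller share of Z/Z TECs, and the interaction was not tested within a class.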

How the results depend on the processing

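Over 74 single-gene results, 913 values under alternatives were computed, of which 831 kept direction and side of the threshold, 73 kept direction but lost the call, 8 gained one and 1 reversed. The reversal was Tek in mTEC2-like cells alone (0.12 against -2.02 in all TECs), while most WT epithelial Tek UMIs lay in tuft-like cells. Called genes among the 10 are given next. Endothelial cells (1) gave 2 without the filter on low counts and 0 without shared barcodes, in the main capillary cluster alone or with mixed clusters left out. Fibroblasts (2) gave 1 on cells thinned to equal depth and 0 without shared barcodes. TECs (4) gave 2 on thinned cells, 0 without shared barcodes and 0 in mTEC2-like cells alone. Capillary against venous cells (3) gave 5 without the filter, arterial against venous cells (5) gave 3 on thinned cells, and the interaction (6) gave 10 without the filter and 3 without shared barcodes. The cause of these changes was not tested. DESeq2 and RLE factors moved no count of called genes by over 1.5 times.

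Leaving out 1 library gave 0 to 1 in endothelial cells, 0 to 2 in fibroblasts, 0 to 3 in TECs and 0 to 2 in mural cells (2 without WT 2), 2 to 4 for mural cells against TECs (4 with all), 2 to 5 for capillary against venous cells, 3 to 5 for arterial against venous cells and 4 to 8 for the interaction. With 1 library left out, the lone library of its genotype is assumed to vary like the others.

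Replicate numbers were shared by label only. Deviations of same-numbered libraries correlated at -0.03 in endothelial cells, -0.15 in fibroblasts, -0.10 in TECs and -0.04 in mural cells. With the replicate block, 1, 0, 3 and 0 of the genes were called in endothelial cells, fibroblasts, TECs and mural cells. Crossed numbers, tried after the data were seen, gave 1, 4, 3 and 0.

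Without thinning, mean shares of cells with a UMI were 40.8% for Vegfa (thinned 11.4%), 45.6% for Angpt1 (20.9%), 15.8% for Angpt2 (6.83%), 2.44% for Apln (0.70%), 73.4% for Kdr (47.3%), 99.1% for Flt1 (94.6%), 21.2% for Flt4 (6.50%), 69.4% for Tek (38.2%) and 23.1% for Aplnr (10.1%). The settings with 1 class alone (for fibroblasts, Pi16 and Inmt together), mixed clusters left out and shared barcodes kept once were added after the data were seen. Precision is limited by the 25 endothelial and 11 mural cells of WT 2.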
